A study of Mus musculus with 24 samples.

Results

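Glycogen is the glucose store of the liver, and 7 genes that build it, break it down or switch between these states were followed across 3 mouse genotypes: Ppp1r3b, Ppp1r3c, Ppp1r3d, Gys2, Ugp2, Gbe1 and Pygl. Each gene was read from the probe sets that the array annotation gives its symbol alone, and every gene had 1 such probe set, so that 7 of 35556 probe sets, or 7 of 19938 genes with a probe set of their own, are described here. All 7 were measured on every array, and no filter on low values was applied. The genes were proposed with earlier results of these data known, among them the lower level of Ppp1r3c, whose values are therefore given as a description without a test.

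Glycogen grows when glycogen synthase adds glucose from UDP-glucose to a chain, and it shrinks when glycogen phosphorylase takes glucose units off again. Phosphorylation switches the synthase off and the phosphorylase on, and protein phosphatase 1 reverses both steps once a targeting subunit has brought it to the glycogen particle. Liver holds several such subunits, among them the products of Ppp1r3b (also named GL), Ppp1r3c (also named PTG) and Ppp1r3d (also named R6). Liver glycogen is known to rise with feeding and to be drawn down during fasting.

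The livers came from male C57Bl6 mice (wild type), alb-SREBP-1a mice and alb-SREBP-1a∆P mice, with 8 arrays per genotype and 24 in all. Both transgenes were carried on the C57Bl6 background and were driven by the albumin promoter, which is active in hepatocytes. They encode the N-terminal part of human SREBP-1a in its active form with an HA tag, a transcription factor of lipid synthesis, with its MAPK phosphorylation sites kept in alb-SREBP-1a, while alb-SREBP-1a∆P lacks them. The paper describes litter mates of each genotype, and does not state whether genotypes shared litters. The mice were fed regular chow without restriction, and all were killed at 24 weeks of age at 7:00 in the morning. No source used here gives the dose or the integration site of a transgene. A value below is a log2 signal as the authors computed it by RMA, and 1 unit is a doubling of the signal. A difference is the mean of the first genotype minus that of the second, ± its standard error (SE), and a gene rose or fell where the p from limma, adjusted over all 35556 probe sets, was under 0.05. In whole liver RNA, fewer cells of a type and less RNA per cell cannot be told apart.

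RefSeq promoter windows on GRCm38.p6, from 250 bases before to 50 bases after the start of the gene, were at hand for 5 of the 7 genes: Ppp1r3c, Ppp1r3d, Pygl, Gbe1 and Ugp2, the last with more than 1 window. The bases before the start are printed for Ppp1r3c and Ppp1r3d, since these targeting subunits carry the same E-box and showed different levels across the genotypes. Ppp1r3c lies on the minus strand, and its stretch is chr19:36736605-36736854. Ppp1r3d also lies on the minus strand, at chr2:178414464-178414713. Capitals mark the E-box CACGTG, a motif that SREBP proteins and the activators of the circadian clock are known to bind.
Ppp1r3c: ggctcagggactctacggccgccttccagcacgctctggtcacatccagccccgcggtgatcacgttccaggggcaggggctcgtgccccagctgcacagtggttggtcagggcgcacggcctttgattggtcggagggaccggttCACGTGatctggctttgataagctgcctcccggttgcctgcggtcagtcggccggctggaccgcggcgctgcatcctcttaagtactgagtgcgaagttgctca
Ppp1r3d: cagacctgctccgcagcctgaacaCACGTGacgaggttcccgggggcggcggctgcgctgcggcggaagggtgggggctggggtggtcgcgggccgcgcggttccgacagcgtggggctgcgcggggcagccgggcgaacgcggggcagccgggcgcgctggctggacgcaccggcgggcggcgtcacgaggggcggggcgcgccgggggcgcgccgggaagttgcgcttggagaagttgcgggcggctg
The E-box began 104 bases before the start of Ppp1r3c and 226 bases before that of Ppp1r3d, and the windows of Pygl, Gbe1 and Ugp2 held none. Among all 32851 windows of the RefSeq set, 7.15% held CACGTG. Both strands were searched for 3 further motifs. The sterol response motif TCACNCCAC (1.24% of all windows) and the cAMP response motif TGACGTCA (1.79%) were in no window of these genes. The nuclear receptor motif AGGTCA (16.3%) was in the window of Pygl alone, on the reverse strand, 128 bases before the start. No match overlapped another, and a match describes letters in a window, not binding.

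Some arrays stood apart, and the genotypes differed in the shape of their signals. The standard deviation of the log2 signals on an array was 2.18 to 2.25 in C57Bl6, 2.14 to 2.23 in alb-SREBP-1a and 2.02 to 2.09 in alb-SREBP-1a∆P, so the last group did not overlap the others. In alb-SREBP-1a∆P bright probe sets lay lower and dim ones higher: the median difference from C57Bl6 was -0.20 in the brightest of 10 equal groups of probe sets and 0.37 in the dimmest. On the first principal component (39.3% of the variance) alb-SREBP-1a∆P replicate 4 lay at 15.7 and the other 7 arrays of its genotype at 55.0 to 90.3. On the second component (8.85%) alb-SREBP-1a replicates 1 and 5 lay at 9.46 and 9.75, away from the other 6 at -54.0 to -11.1. The hepatocyte markers Alb and Ttr were among the measured genes of a list of 8 markers, and the summed signal of its 7 measured members was 80000 to 91700, 76800 to 89200 and 70700 to 80900 in the same order of genotypes. Against C57Bl6 1 of the 7 rose and 2 fell in alb-SREBP-1a, while 1 rose and 4 fell in alb-SREBP-1a∆P. Apoa2 was the gene that rose (0.34 ± 0.08 and 0.26 ± 0.09). In the brightest group, which holds these markers, 14.1% and 12.9% of probe sets rose and 14.5% and 47.2% fell. The summed signal of 7 Kupffer cell markers was 1180 to 1710, 1670 to 2450 and 1530 to 2550, and 5 of the 7 rose in each transgenic line against C57Bl6, where 6.77% and 27.0% of all probe sets rose. Their part in the values below was not tested.

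The targeting subunit Ppp1r3c, which brings protein phosphatase 1 to glycogen, was lower in both transgenic lines than in wild-type liver and lowest in alb-SREBP-1a∆P. Its signal ran from 9.24 over a median of 9.44 to 9.72 in C57Bl6. In alb-SREBP-1a it ran from 7.38 over 8.45 to 8.63. In alb-SREBP-1a∆P it ran from 6.56 over 7.53 to 7.95. Every array of both lines lay below every C57Bl6 array, while the lines overlapped each other. The mean difference from C57Bl6 was -1.23 ± 0.17 in alb-SREBP-1a, a 2.34-fold lower signal, and -1.99 ± 0.16 in alb-SREBP-1a∆P, a 3.97-fold lower signal. Between the lines it was -0.76 ± 0.21, with 2 of 8 alb-SREBP-1a∆P arrays below every alb-SREBP-1a array. Without alb-SREBP-1a∆P replicate 4, which held the lowest signal, the difference from C57Bl6 was -1.86. Without alb-SREBP-1a replicates 1 and 5 the difference of alb-SREBP-1a from C57Bl6 was -0.97.

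Ppp1r3b, the targeting subunit that is abundant in hepatocytes and links phosphorylase activity to the synthase, fell in alb-SREBP-1a∆P against both other genotypes. Its signal ran from 8.78 over a median of 8.91 to 9.10 in C57Bl6, the narrowest of the groups. In alb-SREBP-1a it was spread widely, from 6.93 over 8.45 to 9.01. In alb-SREBP-1a∆P it ran from 6.90 over 7.55 to 7.74. No array of alb-SREBP-1a∆P reached the C57Bl6 range, whereas 1 array of alb-SREBP-1a did. The difference of alb-SREBP-1a∆P from C57Bl6 was -1.48 ± 0.11 (limma, adjusted p = 2.57e-08), which left 35.9% of the wild-type signal. The difference of alb-SREBP-1a from C57Bl6 was -0.65 ± 0.22 with a 95% interval of -1.10 to -0.19, and its adjusted p of 0.0639 missed the threshold although 7 of 8 arrays lay below every C57Bl6 array. Without alb-SREBP-1a replicate 1 that value was -0.45 with an adjusted p of 0.039, and without replicate 3 it was -0.75 with 0.0309, so that leaving out either array changed the call. Over all alternatives it passed in 8 of 26, among them 1 fit over all 24 arrays (-0.65, adjusted p = 0.0379), quantile normalization (-0.67, 0.0444) and cyclic loess (-0.66, 0.0434). The 8 also hold fits that left out arrays after the values were seen, among them that without replicates 1 and 5, and these support no call. Between the lines the difference was -0.83 ± 0.23 (limma, adjusted p = 0.00915), and it missed the threshold after cyclic loess between arrays (-0.55, adjusted p = 0.0867).

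Ppp1r3d, a targeting subunit of wide tissue distribution, did not fall in any of the 3 comparisons. Its signal ran from 5.73 over 6.10 to 6.46 in C57Bl6. The alb-SREBP-1a arrays spanned 5.69 over 6.05 to 6.09, and those of alb-SREBP-1a∆P 6.04 over 6.27 to 6.55. The 3 ranges overlapped, with C57Bl6 the widest. Ppp1r3d rose in alb-SREBP-1a∆P against the alb-SREBP-1a line by 0.31 ± 0.08 (limma, adjusted p = 0.00754), where 7 of 8 arrays lay above every alb-SREBP-1a array. That call was lost when each array was centred on its median (0.14, adjusted p = 0.17). Against C57Bl6 the difference was -0.10 ± 0.11 (95% interval -0.33 to 0.13) in alb-SREBP-1a. That of alb-SREBP-1a∆P was 0.21 ± 0.11 (-0.03 to 0.45), and neither passed the test (adjusted p = 0.617 and 0.142).

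**Figure D1:**
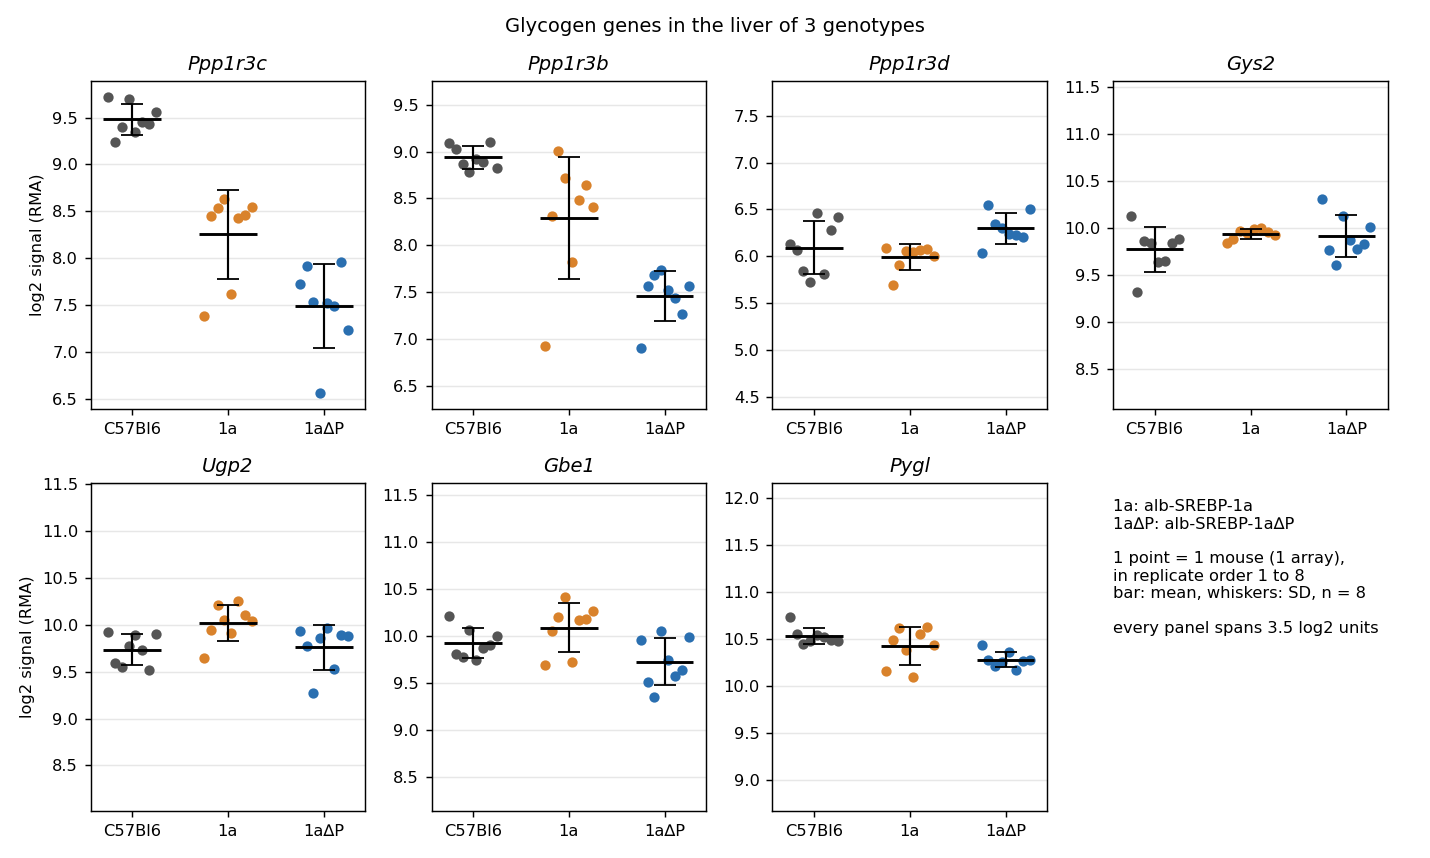
The log2 signal (vertical axis) of the 7 glycogen genes is shown for every array by genotype, with the mean and SD of 8 arrays. Every alb-SREBP-1a∆P array has less Ppp1r3c and Ppp1r3b than any C57Bl6 array, and 2 alb-SREBP-1a arrays lie low for both, while the enzyme genes Gys2, Ugp2, Gbe1 and Pygl move little on the same scale.

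The differences of the glycogen-building genes were smaller than those of Ppp1r3c and Ppp1r3b. Gys2, the glycogen synthase of liver, had a median signal of 9.84 in C57Bl6 (9.32 to 10.13), 9.95 in alb-SREBP-1a (9.84 to 10.001) and 9.86 in alb-SREBP-1a∆P (9.61 to 10.31). All 3 groups overlapped, and the SD was 0.05 in alb-SREBP-1a beside 0.24 in C57Bl6 and 0.22 in alb-SREBP-1a∆P. No difference of Gys2 passed the test: it was 0.17 ± 0.09 (95% interval -0.02 to 0.36) and 0.14 ± 0.12 (-0.10 to 0.39) against C57Bl6, and -0.02 ± 0.09 (-0.21 to 0.16) between the lines, with limma's adjusted p at 0.262, 0.316 and 0.831. After quantile normalization and after cyclic loess Gys2 rose in alb-SREBP-1a∆P against C57Bl6, by 0.29 (adjusted p = 0.0491) and 0.37 (0.0111).

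Ugp2, which makes the UDP-glucose that the synthase uses, had a median signal of 9.76 in C57Bl6 (9.52 to 9.92), 10.05 in alb-SREBP-1a (9.64 to 10.26) and 9.87 in alb-SREBP-1a∆P (9.27 to 9.97). In alb-SREBP-1a 6 of 8 arrays lay above every C57Bl6 array, and the difference of 0.29 ± 0.09 just missed the threshold (limma, adjusted p = 0.0553). It passed in 8 of 26 alternatives, among them quantile normalization (0.29, adjusted p = 0.0287) and cyclic loess (0.29, 0.0294). The 8 also hold fits that left out arrays after the values were seen, and these support no call. Among them were those without alb-SREBP-1a replicate 1 (0.34), without C57Bl6 replicate 1 (0.31) and without alb-SREBP-1a replicates 1 and 5. The difference of alb-SREBP-1a∆P was 0.03 ± 0.11 from C57Bl6 and -0.26 ± 0.11 from alb-SREBP-1a (limma, adjusted p = 0.844 and 0.0652). The former passed in 1 of 24 alternatives, cyclic loess (0.26, adjusted p = 0.0462). The latter ranged from -0.43 to -0.04 and passed in 7 of 26. Among these were 1 fit over all 24 arrays (-0.26, adjusted p = 0.0396) and median centring (-0.43, 0.00959). Fits that left out arrays after the values were seen, as without alb-SREBP-1a replicate 1 (-0.31), again support no call.

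Gbe1, the branching enzyme, had a median signal of 9.88 in C57Bl6 (9.75 to 10.22), 10.18 in alb-SREBP-1a (9.69 to 10.42) and 9.69 in alb-SREBP-1a∆P (9.35 to 10.05). It fell in alb-SREBP-1a∆P against the alb-SREBP-1a line by 0.36 ± 0.13 (limma, adjusted p = 0.0271), with 4 of 8 arrays below every alb-SREBP-1a array. The call was lost after quantile normalization (-0.22, adjusted p = 0.163), after cyclic loess (-0.15, 0.322), and, with an adjusted p between 0.0509 and 0.0549, without alb-SREBP-1a∆P replicate 2 or 3 or alb-SREBP-1a replicate 4 or 8. Against C57Bl6 the differences of 0.17 ± 0.11 and -0.20 ± 0.11 did not pass (limma, adjusted p = 0.359 and 0.139). The latter, of alb-SREBP-1a∆P, passed after median centring (-0.36, adjusted p = 0.0216) and with a variance trend and array weights (-0.23, 0.0435). After cyclic loess it changed sign (0.03, 0.844).

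Pygl, the glycogen phosphorylase of liver, fell slightly in alb-SREBP-1a∆P. Its median signal was 10.51 in C57Bl6 (10.45 to 10.74), 10.47 in alb-SREBP-1a (10.10 to 10.63) and 10.27 in alb-SREBP-1a∆P (10.17 to 10.44). All 8 arrays of alb-SREBP-1a∆P were lower than each C57Bl6 array, and the difference was -0.25 ± 0.06 (limma, adjusted p = 0.00355). It shrank to -0.11 (adjusted p = 0.163) after quantile normalization and to -0.05 (0.568) after cyclic loess, which both give the arrays a like distribution of signals. The differences of -0.11 ± 0.08 of alb-SREBP-1a from C57Bl6 and -0.14 ± 0.08 between the lines did not pass (limma, adjusted p = 0.448 and 0.18). That between the lines passed after median centring (-0.31, adjusted p = 0.0172) and with a variance trend and array weights (-0.19, 0.0313). It changed sign after cyclic loess (0.05, 0.653).

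Set side by side, 1 of the 7 genes passed the threshold in alb-SREBP-1a against C57Bl6, where 10.8% of all probe sets did. In alb-SREBP-1a∆P 3 of 7 passed against C57Bl6 (47.2% of all probe sets) and 4 of 7 against alb-SREBP-1a (44.2%). Ppp1r3c is counted in each of these numbers and is the gene that passed in the first comparison. Since its lower level was known when the genes were chosen, nothing is read from that count. The median difference of the 7 genes was -0.10, -0.20 and -0.26 in the 3 comparisons in this order, and that of all probe sets was 0.01, 0.11 and 0.08. The first and second comparison share the 8 C57Bl6 arrays, and the third uses the arrays of both lines again, so the 3 sets of values are not independent.

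Because brightness moved with the genotype, each gene was also set beside probe sets of like brightness, by 10 equal groups of mean signal. Ppp1r3b and Ppp1r3c fell in the second-brightest group, whose median difference was 0.01 in alb-SREBP-1a against C57Bl6, -0.29 in alb-SREBP-1a∆P against C57Bl6 and -0.31 between the lines. In that group 53.3% of probe sets fell in alb-SREBP-1a∆P against C57Bl6. The differences of -1.48 in Ppp1r3b and -1.99 in Ppp1r3c were larger than the group's median, whereas the -0.25 of Pygl lay close to the -0.20 of the brightest group, in which 47.2% of probe sets fell. Gys2, Ugp2 and Gbe1 shared the brightest group with Pygl. Ppp1r3d belonged to the seventh group from the dim end, with a median of -0.08 between the lines beside its own 0.31.

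**Figure D2:**
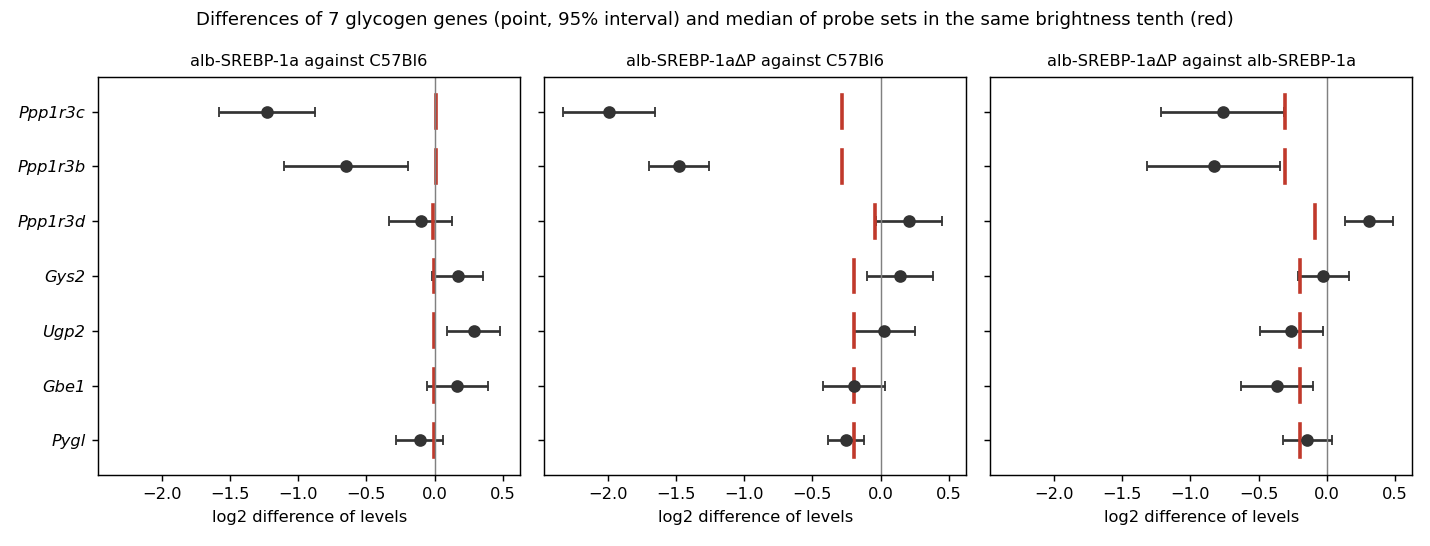
Points are log2 differences of 7 glycogen genes with 95% intervals (limma, 8 against 8 arrays), and red marks are the median difference of all probe sets in the same of 10 equal groups by mean signal. Ppp1r3c and Ppp1r3b lie left of their marks in both comparisons with C57Bl6, and the interval of Pygl in alb-SREBP-1a∆P against C57Bl6 holds its mark. Ppp1r3b in alb-SREBP-1a missed the threshold (limma, adjusted p = 0.0639). Ppp1r3c, chosen with its lower level known, is drawn as a description.

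The wide spread of Ppp1r3b in alb-SREBP-1a turned on replicates 1 and 5, the arrays that stood apart on the second component: its SD was 0.65 over 8 arrays and 0.25 over the other 6. Their Ppp1r3b signals were 6.93 and 7.82, and those of the other 6 arrays were 8.32 to 9.01. For Ppp1r3c the same arrays had 7.38 and 7.62 beside 8.42 to 8.63. They were also the lowest arrays of the genotype for Pygl (10.16 and 10.10 beside 10.39 to 10.63), Gbe1 (9.69 and 9.72 beside 10.05 to 10.42) and Ugp2 (9.64 and 9.91 beside 9.95 to 10.26). Ppp1r3d did not share this order, with 6.09 and 6.05 beside 5.69 to 6.07, and for Gys2 replicate 1 was lowest (9.84) while replicate 5 (9.98) lay inside the range of the others. Leaving out these 2 arrays was chosen after their low values were seen, so the differences over the other 6 are given without a test. Against C57Bl6 they were then -0.34 for Ppp1r3b, -0.01 for Pygl, 0.29 for Gbe1, 0.37 for Ugp2, -0.13 for Ppp1r3d and 0.18 for Gys2. Between the lines they were -1.14 for Ppp1r3b, -1.01 for Ppp1r3c, -0.24 for Pygl, -0.49 for Gbe1, -0.34 for Ugp2, 0.34 for Ppp1r3d and -0.03 for Gys2. The same arrays had medians of 5.64 and 5.65 over all probe sets beside 5.54 to 5.57 in the other 6, and whether this had a part in the low signals was not tested.

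Ppp1r3b and Ppp1r3c went together across genotypes but not within each of them. Over 24 arrays Pearson's r between them was 0.85, and it was 0.45 once the mean of each genotype had been taken off. Within alb-SREBP-1a r was 0.93, and over the 6 arrays other than replicates 1 and 5 it was 0.45. Within C57Bl6 it was -0.20 and within alb-SREBP-1a∆P -0.54, each over 8 arrays. Pairs of the enzyme genes Gys2, Ugp2, Gbe1 and Pygl all had a positive r within each genotype, but its size varied. Between Gbe1 and Ugp2 it was 0.51, 0.73 and 0.73 in the order C57Bl6, alb-SREBP-1a, then alb-SREBP-1a∆P. For Gys2 it was 0.71, 0.38 and 0.90 with Gbe1, 0.37, 0.81 and 0.69 with Ugp2, and 0.30, 0.34 and 0.70 with Pygl. Values of an array share its RNA, labelling and scaling, so these numbers are descriptions.

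**Figure D3:**
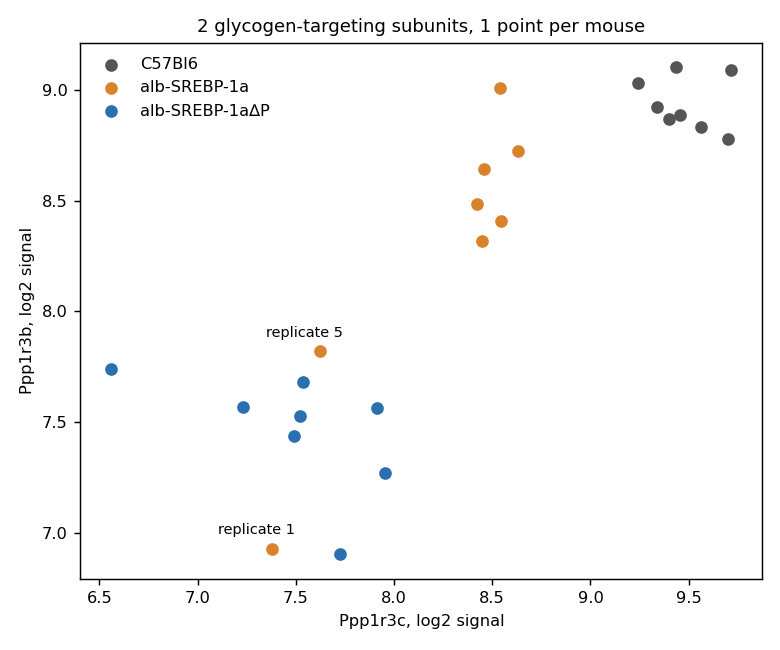
Each point is an array, with the log2 signal of Ppp1r3c on the horizontal and of Ppp1r3b on the vertical axis. The C57Bl6 arrays form a group at the upper right, 6 alb-SREBP-1a arrays lie left of it at a Ppp1r3c signal of 8.42 to 8.63, and alb-SREBP-1a replicates 1 and 5 lie apart from these 6, near the alb-SREBP-1a∆P arrays, replicate 5 with a Ppp1r3b signal of 7.82 just above their highest of 7.74.

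Beyond the 7 genes, 35 of 39 listed genes of glycogen metabolism were measured, and the others are not analysed here. In alb-SREBP-1a 2 of the 35 rose, 8 fell and 25 did not pass against C57Bl6, where 6.77% of all probe sets rose and 3.98% fell. In alb-SREBP-1a∆P 5 rose and 15 fell against C57Bl6, where 27.0% of all probe sets rose and 20.2% fell. Between the lines 3 rose and 16 fell, where 22.8% of all probe sets rose and 21.4% fell. Most of the 35 genes lie in the 3 brightest groups. There 6.1% to 14.5% of probe sets fell and 11.7% to 14.1% rose in alb-SREBP-1a against C57Bl6, with the share of 14.5% in the brightest group. In the same 3 groups 46.1% to 53.3% fell in alb-SREBP-1a∆P against C57Bl6 and 46.1% to 62.3% between the lines. The median differences of the 35 genes were -0.03, -0.19 and -0.20.

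Of the catalytic subunits of protein phosphatase 1, the enzyme that the targeting subunits carry, Ppp1ca and Ppp1cb fell in both lines against C57Bl6 and Ppp1cc fell in alb-SREBP-1a∆P. Ppp1cb ran from 9.45 to 9.78 in C57Bl6, from 8.95 to 9.26 in alb-SREBP-1a and from 8.83 to 9.39 in alb-SREBP-1a∆P, so neither line overlapped C57Bl6. In alb-SREBP-1a it fell by 0.48 ± 0.07 (limma, adjusted p = 0.000167), and in alb-SREBP-1a∆P it fell by 0.56 ± 0.08 (5.54e-05). Ppp1ca fell by 0.34 ± 0.09 and 0.61 ± 0.10, and the first of these calls was lost without alb-SREBP-1a replicates 1 and 2 (-0.34, adjusted p = 0.0602) and with the replicate block (0.0772). The difference of Ppp1cc was -0.09 ± 0.10 in alb-SREBP-1a (limma, adjusted p = 0.6), and in alb-SREBP-1a∆P it fell by 0.40 ± 0.10, a call that was lost after cyclic loess (-0.16, adjusted p = 0.171). All 3 belong to the brightest of the 10 groups, in which 14.5% and 47.2% of probe sets fell in the same 2 comparisons. Of the other glycogen-targeting subunits Ppp1r3a, the form of muscle, rose by 0.32 ± 0.13 in alb-SREBP-1a∆P against C57Bl6, but its difference was -0.02 after quantile normalization and -0.01 after cyclic loess. Of 6 skeletal muscle markers 3 rose in the same comparison (Ckm by 0.40 ± 0.11, Myh4 by 0.40 ± 0.10 and Myh1 by 0.31 ± 0.09), beside 27.0% of all probe sets. Tnnt3 (0.10 ± 0.11), Acta1 (-0.08 ± 0.10) and Mylpf (-0.07 ± 0.13) did not pass. Myh4 and Myh1 lie in the third group from the dim end and Ckm in the sixth, where 40.5% and 24.0% of probe sets rose. The summed signal of the 6 was 255 to 298 in C57Bl6 beside 272 to 337 in alb-SREBP-1a∆P. Of 5 measured adipocyte markers 3 rose as well, beside the same 27.0%, while Cidec and Fabp4 did not pass. In the group of like brightness to Ppp1r3a, the second from the dim end, 43.6% of probe sets rose, and the part of these in its rise was not tested. Ppp1r3e, Ppp1r3f and Ppp1r3g did not pass in any of the 3 comparisons. Ppp1r1a, which encodes an inhibitor of the phosphatase, rose by 0.27 ± 0.07 against C57Bl6 and 0.35 ± 0.09 against alb-SREBP-1a. That rise missed the threshold against C57Bl6 after quantile normalization (0.17, adjusted p = 0.0698), and in both comparisons after median centring (0.10, adjusted p = 0.235, and 0.19, 0.0921). Counted over this list of 9, 0 rose and 2 fell in alb-SREBP-1a (6.77% and 3.98% of all probe sets), 2 rose and 3 fell in alb-SREBP-1a∆P against C57Bl6 (27.0% and 20.2%), and 2 rose and 2 fell between the lines (22.8% and 21.4%). The last 2 pairs of counts lie near the shares of all probe sets.

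Of the 5 measured subunit genes of phosphorylase kinase, which switches glycogen phosphorylase on, 4 fell in alb-SREBP-1a∆P against C57Bl6, where 20.2% of all probe sets fell, and no subunit passed in alb-SREBP-1a against C57Bl6. Phka1, the alpha subunit of muscle, ran from 6.11 to 6.49 in C57Bl6, from 6.25 to 6.75 in alb-SREBP-1a and from 5.47 to 6.21 in alb-SREBP-1a∆P. It fell by 0.61 ± 0.10 against C57Bl6 (limma, adjusted p = 0.000141) and by 0.67 ± 0.11 against alb-SREBP-1a (0.000304). Against C57Bl6 Phka2, the alpha subunit of liver, fell by 0.42 ± 0.11, the beta subunit gene Phkb by 0.42 ± 0.09 and Phkg2, the catalytic subunit of liver, by 0.50 ± 0.09. These 3 lie in the second-brightest group, where 53.3% of probe sets fell, and Phka1 in the seventh from the dim end, where 28.6% did. The calls of Phka2 and Phkb were lost after cyclic loess (-0.16, adjusted p = 0.218, and -0.18, 0.109), and that of Phka2 also after quantile normalization (-0.25, 0.0823). Phkg1, the catalytic subunit of muscle, did not pass (0.11 ± 0.10, adjusted p = 0.369). Stbd1, which anchors glycogen to membranes, fell by 0.43 ± 0.10 in alb-SREBP-1a∆P against C57Bl6 and lost this call after cyclic loess (-0.20, adjusted p = 0.148). Gaa, the lysosomal glucosidase, rose in alb-SREBP-1a by 0.27 ± 0.07 (limma, adjusted p = 0.0295), and this missed the threshold after quantile normalization (0.24, 0.0509). In all, 1 of the 9 genes of glycogen breakdown rose in alb-SREBP-1a and 0 fell, beside 6.77% and 3.98% of all probe sets. In alb-SREBP-1a∆P 0 rose and 5 fell against C57Bl6 (27.0% and 20.2% of all probe sets), and 0 rose and 6 fell between the lines (22.8% and 21.4%). Among probe sets of the 3 brightest groups 46.1% to 53.3% fell in the first and 46.1% to 62.3% in the second of these.

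Among the other synthesis genes Pgm1, which interconverts glucose-1-phosphate and glucose-6-phosphate, had a median signal of 10.12 in C57Bl6. It was 9.88 for alb-SREBP-1a, while alb-SREBP-1a∆P had 9.40, and the highest array of that line (9.71) was lower than the lowest of C57Bl6 (9.98). In alb-SREBP-1a it fell by 0.27 ± 0.07 (limma, adjusted p = 0.0221), in alb-SREBP-1a∆P it fell by 0.67 ± 0.07 (2.31e-06), and the first of these calls was lost after median centring (-0.26, 0.0577). Gys1, the synthase of muscle, did not pass in any comparison (-0.22 ± 0.08, -0.11 ± 0.08 and 0.11 ± 0.07). Gyg, the primer of glycogen synthesis, rose by 0.24 ± 0.09 in alb-SREBP-1a∆P against C57Bl6 (limma, adjusted p = 0.04), a call that was lost after median centring (0.08, 0.563) and quantile normalization (0.17, 0.214).

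Genes of kinases that act on glycogen synthase or phosphorylase kinase, and of their subunits, moved in both directions. Gsk3a, a kinase that inhibits the synthase, rose in alb-SREBP-1a by 0.31 ± 0.08 against C57Bl6, and its rise in alb-SREBP-1a∆P was 0.25 ± 0.09 (limma, adjusted p = 0.0119 and 0.0315). The second call was lost without alb-SREBP-1a∆P replicate 4 (0.20, adjusted p = 0.0563) and after median centring (0.09, 0.493). Gsk3b, its close relative, fell by 0.25 ± 0.09 in alb-SREBP-1a∆P, but by 0.01 after cyclic loess (adjusted p = 0.966). Of the protein kinase A genes, Prkacb (a catalytic subunit) and the regulatory subunits Prkar1a and Prkar2a fell in alb-SREBP-1a∆P by 0.68 ± 0.08, 0.74 ± 0.11 and 0.76 ± 0.08. The regulatory subunit Prkar2b did not pass there (0.21 ± 0.09, limma, adjusted p = 0.0668). The genes that fell lie in the 2 brightest groups, where 47.2% and 53.3% of probe sets fell. In alb-SREBP-1a Prkar1a fell by 0.42 ± 0.10 (limma, adjusted p = 0.0128) and Prkar2a by 0.29 ± 0.09 (0.0478), the latter a call lost after median centring (-0.28, 0.0988), while Prkacb did not pass (-0.18 ± 0.07, 0.117). Nhlrc1, which encodes malin, a partner of laforin in glycogen quality control, ran from 7.996 to 8.29 in C57Bl6 and from 8.39 to 8.65 in alb-SREBP-1a∆P without overlap. It rose by 0.41 ± 0.07 (limma, adjusted p = 9.88e-05), and its partner Epm2a did not pass (-0.19 ± 0.10, adjusted p = 0.121).

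The genes of glucose and glucose-6-phosphate handling included the largest fall among these 35 genes in both comparisons with C57Bl6. G6pc, the glucose-6-phosphatase of liver, ran from 12.61 to 13.07 in C57Bl6, from 11.39 to 12.51 in alb-SREBP-1a and from 10.95 to 11.84 in alb-SREBP-1a∆P. Neither line overlapped C57Bl6, and G6pc fell by 0.84 ± 0.14 (limma, adjusted p = 0.000992) and 1.31 ± 0.11 (2.12e-07). Gckr, the regulator of glucokinase, fell by 0.38 ± 0.07 and 0.80 ± 0.09. The glucose-6-phosphate transporter Slc37a4 fell by 0.31 ± 0.10 in alb-SREBP-1a with an adjusted p of 0.049 that rose above the threshold in several alternatives, among them 1 fit over all 24 arrays (-0.31, 0.0554). Slc2a2, the glucose transporter of the hepatocyte, fell between the lines by 0.32 ± 0.08 (limma, adjusted p = 0.00495), a call lost after quantile normalization (-0.19, 0.0839) and cyclic loess (-0.12, 0.266).

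**Figure D4:**
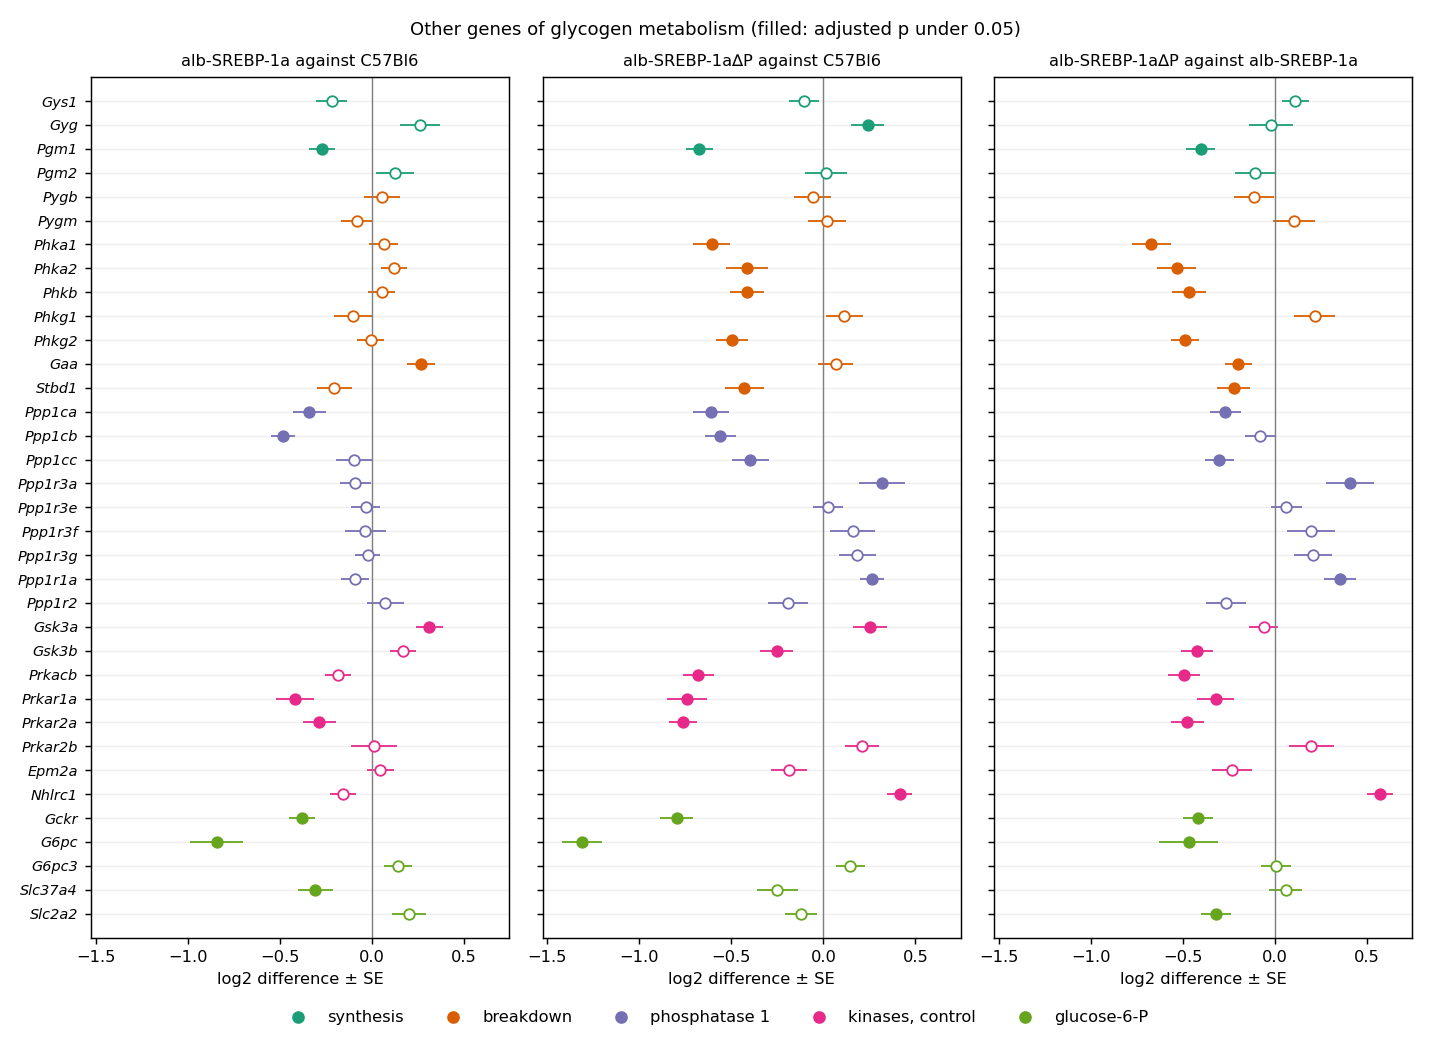
Log2 differences ± SE are shown for 35 further genes of glycogen metabolism in the 3 comparisons, grouped by role, and filled points passed an adjusted p under 0.05. G6pc lies furthest left in both comparisons with C57Bl6, and 4 phosphorylase kinase subunits lie left of 0 in alb-SREBP-1a∆P while their points in alb-SREBP-1a are open and near 0.

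The genes whose pattern over the 24 arrays was most like each of the 7 were taken by Pearson's r over all genes with a probe set of their own. Nearest to Ppp1r3c were Slc25a17, Nop56 and Clpx (each r = 0.95), which kept r of 0.70, 0.76 and 0.66 after genotype means were removed. Nearest to Ppp1r3b were Pigk and Gm4956 (r = 0.93) and Gtpbp4 (0.92). Nearest to Gbe1 were Acsm3 and Cd36 (0.92) and Armh3 (0.90), and their r stayed at 0.91, 0.88 and 0.86 without the genotype means. For Pygl the nearest was Acadsb (0.89), for Ugp2 Mcee (0.84), for Ppp1r3d Nrg2 (0.81) and for Gys2 Pxk (0.72). These are descriptions over 24 arrays that share their processing.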

How the data were processed

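Liver RNA (150 ng per array) was hybridised to Affymetrix Mouse Gene 1.0 ST arrays. The authors computed log2 signals by RMA in Affymetrix Expression Console 1.1 and deposited 1 value per probe set and array for 35556 probe sets. An array build is named in no source used here. The deposited columns of all 24 arrays were used. Of the probe sets 21789 carried 1 symbol, 1621 several and 12146 none, and for each gene the single-symbol probe set of highest mean was taken. For each comparison limma 3.58.1 (R 4.3.3) was run on 8 against 8 arrays, with Benjamini-Hochberg adjustment over all probe sets, after being tested on simulated data. A p-value refers to the spread among these mice, and the number of arrays limits the precision. Members and gene lists were chosen with earlier results of these data known. Of each list up to 4 genes per comparison with the smallest p were set for naming. Other genes named, among them Gys1, Phkg1 and Epm2a, show that a relative did not pass and were chosen after their values were seen. Alternatives were 1 fit over all arrays, the replicate number as a block, other scalings, a filter on dim probe sets, array weights, the methods' t-test and the mean over the probe sets of a gene. Leaving out single arrays, or alb-SREBP-1a replicates 1 and 5, was chosen after the values were seen. Sequences came from RefSeq (GRCm38.p6). Tables and figures were made with Python 3.11.15, numpy 2.4.6, pandas 2.3.3 and matplotlib 3.10.9.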

Additional observations from a re-analysis of the deposited data

Results flagged for a closer look

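In 30 named genes and 3 genotypes 90 groups of 8 arrays were searched for an array that lay apart from the other 7 by Dixon's criterion, and 6 groups held such an array. Chance marks about 1 in 20 groups. Ppp1r3d had its lowest alb-SREBP-1a signal in replicate 2, at 5.69, with the next at 5.91. Pygl had its highest C57Bl6 signal in replicate 1, at 10.74, with the next at 10.55. Phka1 reached 6.75 in alb-SREBP-1a replicate 4, with the next at 6.48. Stbd1 was at 7.09 in alb-SREBP-1a replicate 5, with the next at 7.44. Ppp1r3a was at 3.08 in alb-SREBP-1a replicate 8, with the next at 3.37. Gsk3a reached 9.84 in alb-SREBP-1a∆P replicate 4, which also stood apart on the first principal component, with the next at 9.53.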

How the results depend on the processing

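Of 532 differences of the 7 genes under alternatives, 479 kept direction and side of the threshold, 12 lost the call, 32 gained it and 9 changed sign. For the other named glycogen genes 554 of 644 kept both, 60 lost the call, 14 gained it and 16 changed sign. In alb-SREBP-1a against C57Bl6 the number of the 7 genes that passed was 1, and it was 2 in 1 fit over all 24 arrays, 3 after quantile normalization, after cyclic loess, without dim probe sets, and with a variance trend and array weights. It was 2 without alb-SREBP-1a replicates 1 and 2, 4 without replicates 1 and 5 (left out for their low values, so that this count supports no call), and 1 to 3 when single arrays were left out (3 without alb-SREBP-1a replicate 1, 2 without its replicate 3 or C57Bl6 replicate 1). Of the other glycogen genes 5 in place of 10 passed there without alb-SREBP-1a replicates 1 and 2. Between the lines 2 and 1 of the 7 genes passed in place of 4 after quantile normalization and cyclic loess, and 12 and 8 of the other genes in place of 19. The difference of Ppp1r3c between the lines was then -0.56 and -0.49.

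Signs changed after median centring for Phkg2 in alb-SREBP-1a against C57Bl6 (0.0006), for Gys2 (-0.0177), Ugp2 (-0.13) and Gaa (-0.0938) in alb-SREBP-1a∆P against C57Bl6, and for Slc37a4 between the lines (-0.11). After quantile normalization they changed for Ppp1r3a (-0.0229) and Slc2a2 (0.0297) in alb-SREBP-1a∆P against C57Bl6, and between the lines for Gys2 (0.12), Gaa (0.01), Ppp1cb (0.11) and Gsk3a (0.10). After cyclic loess they changed for Gbe1 (0.0282), Ppp1r3a (-0.0146) and Slc2a2 (0.0943) in alb-SREBP-1a∆P against C57Bl6, and between the lines for Gys2 (0.19), Pygl (0.0492), Gyg (0.0177), Gaa (0.0609), Stbd1 (0.0227), Ppp1cb (0.17) and Gsk3a (0.17). Gyg was at 0.0198 between the lines without alb-SREBP-1a replicates 1 and 2. With single arrays left out, Ugp2 ranged from -0.0034 to 0.10 in alb-SREBP-1a∆P against C57Bl6 and Gys2 from -0.0819 to 0.0184 between the lines. The cause was not tested.

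The share of calls that were higher was 63.0% in alb-SREBP-1a against C57Bl6 and 51.6% after quantile normalization. In alb-SREBP-1a∆P against C57Bl6 it was 57.1%, and 40.7% after quantile normalization and 31.9% after median centring, which moved the median of all probe sets from 0.106 to -0.0339 and -0.0544. Between the lines it was 51.6%, 41.1% and 23.9%. With the replicate block 1, 3 and 4 of the 7 genes and 7, 19 and 17 of the other glycogen genes passed in the 3 comparisons, and 3163, 16207 and 13749 of all probe sets. Deviations of arrays with the same replicate number correlated from -0.116 to 0.279, over 0.1 in 2, 1 and 2 of 8 pairs. Pairs of unlike number were not compared, so whether the numbers pair the mice was not tested. Each of the 7 genes had 1 probe set, so the mean over probe sets gave no further value for them.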

Other observations

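A list of 9 genes that respond to fasting and feeding in liver was measured in full. In alb-SREBP-1a against C57Bl6 Txnip, a glucose-responsive gene, rose by 0.61 ± 0.12 (limma, adjusted p = 0.00239), Tat, a tyrosine aminotransferase, fell by 0.75 ± 0.10 (0.000192), and 7 did not pass, beside 6.77% of all probe sets that rose and 3.98% that fell. In alb-SREBP-1a∆P against C57Bl6 1 rose and 5 fell (27.0% and 20.2% of all probe sets), with Pdk4, which restrains glucose oxidation, falling by 1.46 ± 0.16 (limma, adjusted p = 2.39e-06), while Pck1, a gluconeogenic enzyme, did not pass (0.02 ± 0.19, adjusted p = 0.937). The 5 that fell lie in the 3 brightest groups, where 46.1% to 53.3% of probe sets fell in this comparison. Between the lines Txnip fell by 0.92 ± 0.12 and Pdk4 by 1.14 ± 0.16. Liver glycogen was not measured on these arrays.

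The clock repressor Nr1d1 rose by 3.20 ± 0.12 in alb-SREBP-1a against C57Bl6, and the clock activator Arntl fell by 0.99 ± 0.16. In alb-SREBP-1a∆P Nr1d1 was 11.3-fold higher than in C57Bl6 and Arntl fell by 1.66 ± 0.11, and between the lines Nr1d1 rose by 0.30 ± 0.10 and Arntl fell by 0.67 ± 0.16. Of 6 measured clock genes 3 rose and 2 fell in each line against C57Bl6, and Per2 did not pass. Of all probe sets 6.77% rose and 3.98% fell in alb-SREBP-1a, and 27.0% and 20.2% in alb-SREBP-1a∆P. In the same order of lines the differences were 1.31 and 1.34 for Nr1d2, 1.32 and 1.84 for Dbp, and -1.13 and -1.40 for Cry1. Over the 24 arrays Pearson's r of Ppp1r3c was 0.94 with Arntl, and 0.60 after genotype means were removed. With Nr1d1, G6pc, Tat, Pdk4 and Igfbp1 it lay between -0.88 and 0.89, and between -0.32 and 0.39 after that removal. For Ppp1r3b the values with Arntl were 0.83 and 0.29, and for Ppp1r3d -0.35 and -0.18. These are descriptions over arrays that share their processing, and whether the clock genes had a part in the values was not tested.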
